A study of Mus musculus with 2 samples.

Results

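Suclg2 and 8 further genes of the citric acid cycle and of succinyl-CoA ligase were followed in spleen RNA of NOD.L7 mice and NOD.g7 mice. The 9 genes were taken by symbol from the deposited table of 22216 gene rows: Suclg1, Suclg2, Sucla2, Cs, Idh2, Idh3a, Ogdh, Fh1 and Mdh2. Suclg2 was singled out because it stood far apart between the libraries in these same data, so its difference is given as a description, and the others were chosen by what their enzymes do. All 9 reached a value of at least 1 in RPKM (reads normalised for the length of the gene and the depth of the library) in either library, as did 11141 genes of the table.

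The labels give the genotypes as NOD.L7 and NOD.g7. Both carry the name of the non-obese diabetic (NOD) mouse, an inbred strain that develops autoimmune diabetes. Each genotype had 1 RNA-seq library, made from the spleens of 3 pooled mice, and no age, sex or treatment is given in the labels. The column headed NOD.LC7 was taken as NOD.L7 and the column headed NOD as NOD.g7, and the meaning of L7, LC7 and g7 is not given in the sources used here. With 1 library per genotype there is no measure of the spread between mice, so there is no test, and each value below is a single measurement. In whole spleen, fewer cells of a type and less RNA per cell cannot be told apart. The values rested on 12.1 Gb of mapped sequence in NOD.L7 and 9.13 Gb in NOD.g7.

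The citric acid cycle runs in the mitochondrial matrix, where it oxidises the acetyl group of acetyl-CoA and hands the electrons to the respiratory chain. Succinyl-CoA ligase carries out the step from succinyl-CoA to succinate and is the one enzyme of the cycle that makes a nucleoside triphosphate directly. It is a pair of an alpha subunit, encoded by Suclg1, and a beta subunit that sets the nucleotide: with the Sucla2 product the enzyme forms ATP, and with the Suclg2 product it forms GTP. The balance of both beta subunits is known to differ between tissues.

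The sequences around the start sites of the 3 ligase genes are shown because Suclg2 differed several fold between the libraries and its partners did not. They are the windows of 300 bases from 250 before to 50 after the annotated start, from RefSeq on the GRCm38.p6 reference (C57BL/6J), not read from NOD mice. Capitals mark GGGCGG and its reverse complement CCGCCC, the GC box to which the Sp and Klf families of transcription factors are known to bind. The Suclg2 window lies at chr6:95718797-95719096 on the minus strand, the Sucla2 window at chr14:73552536-73552835 on the plus strand and the Suclg1 window at chr6:73248255-73248554 on the plus strand.
Suclg2: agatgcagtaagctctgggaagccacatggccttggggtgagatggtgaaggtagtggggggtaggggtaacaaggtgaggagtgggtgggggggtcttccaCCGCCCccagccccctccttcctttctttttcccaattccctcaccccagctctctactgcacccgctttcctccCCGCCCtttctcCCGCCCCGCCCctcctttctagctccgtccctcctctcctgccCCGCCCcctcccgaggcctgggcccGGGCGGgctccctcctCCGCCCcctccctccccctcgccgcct
Sucla2: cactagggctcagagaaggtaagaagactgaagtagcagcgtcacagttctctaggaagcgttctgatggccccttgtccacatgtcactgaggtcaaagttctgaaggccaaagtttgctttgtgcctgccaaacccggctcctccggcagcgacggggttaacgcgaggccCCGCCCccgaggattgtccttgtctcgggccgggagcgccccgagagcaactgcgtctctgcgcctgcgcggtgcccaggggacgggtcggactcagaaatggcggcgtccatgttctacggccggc
Suclg1: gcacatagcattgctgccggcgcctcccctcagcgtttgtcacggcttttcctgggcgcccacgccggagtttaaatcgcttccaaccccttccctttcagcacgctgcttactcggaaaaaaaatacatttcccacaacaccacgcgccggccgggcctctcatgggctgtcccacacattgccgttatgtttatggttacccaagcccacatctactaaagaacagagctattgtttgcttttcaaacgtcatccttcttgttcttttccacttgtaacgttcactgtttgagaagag

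The Suclg2 window held 7 GC boxes, 1 on the given strand and 6 on the other, of which a pair overlapped by a base. The Sucla2 window held 1 and the Suclg1 window 0. Of all 32851 windows of the table, 35.7% held at least 1 GC box and 0.627% held 7 or more. The G and C content was 67.7% in the Suclg2 window, 62.0% in the Sucla2 window and 51.0% in the Suclg1 window. Over all windows its median was 52.7% and its upper quartile 61.7%. The shares of windows with GC boxes were not matched for G and C content. The ETS core CCGGAAG, searched on both strands and found in 8.86% of all windows, was absent from the windows of all 8 members that had one. CCAAT, on either strand, was found once in the Suclg2 window, not in those of Sucla2 and Suclg1, and in 37.4% of all windows. These matches describe the reference letters and were not tied to the values by any measurement here.

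Among the ligase subunits, the GTP-forming beta subunit gene differed several fold and its partners far less. Suclg2 was at 10.1 RPKM in NOD.L7, against 1.96 RPKM in NOD.g7. That is 5.17-fold higher in NOD.L7, with a 95% counting interval of 4.58 to 5.85 from an estimated 2061 fragments in NOD.L7 and 301 in NOD.g7, which leaves out all variation between mice. Its log2 ratio, computed as log2((NOD.L7 + 1)/(NOD.g7 + 1)) on RPKM values, was 1.91, and the pseudocount of 1 makes this smaller than the log2 of the plain fold.

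Sucla2, the ATP-forming beta subunit gene, was at 19.9 RPKM in NOD.L7 and 19.8 RPKM in NOD.g7, a difference of 0.157% (counting interval of the fold 0.945 to 1.06). Suclg1, the alpha subunit gene shared by both forms, was at 44.5 RPKM in NOD.L7 and 40.3 RPKM in NOD.g7, 1.10-fold higher (counting interval 1.07 to 1.14). The interval of Suclg1 leaves out a fold of 1 by counting error alone, and the size of that difference was far below the one of Suclg2.

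RPKM is scaled by gene length, so setting the beta subunit genes side by side rests on the lengths used, which are unknown. The longest coding transcript of Suclg2 has 3367 bases and the second longest 2518. Of the 50-base windows of the longest, 21.8% also occurred in the pseudogene Gm15163, against 0 for Sucla2. The effect of either on the shares and ratios between genes in this paragraph was not tested. Suclg2 made up 33.8% of the summed RPKM of Suclg2 and Sucla2 in NOD.L7, against 8.99% in NOD.g7. Sucla2 was the higher of the pair in both libraries, 1.96 times the Suclg2 level in NOD.L7 and 10.1 times in NOD.g7. The summed beta subunit level was 1.38-fold higher in NOD.L7, and of the difference of 8.20 RPKM Suclg2 contributed 8.17 RPKM. The alpha subunit level was 1.48 times the summed beta level in NOD.L7 and 1.85 times in NOD.g7. These are transcript levels, and protein and enzyme activity were not measured.

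**Figure D1:**
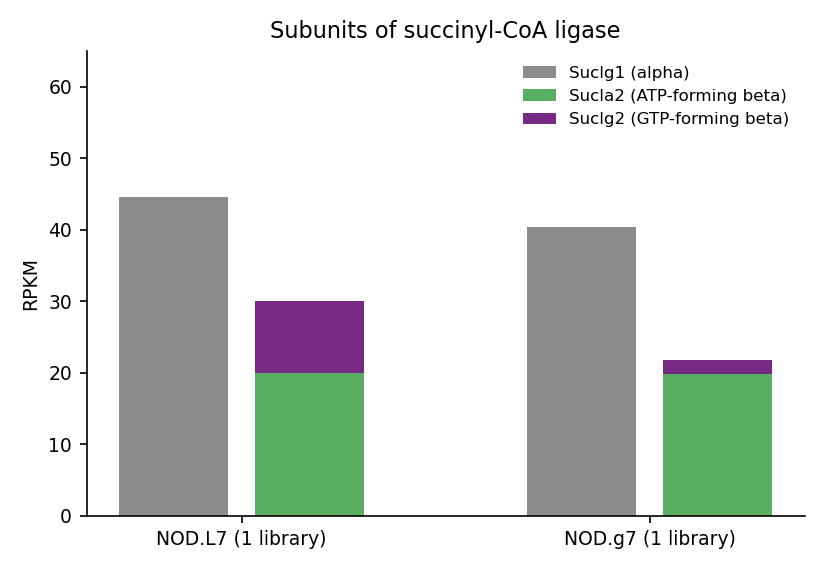
RPKM of the succinyl-CoA ligase subunit genes in the NOD.L7 library (left pair of bars) and the NOD.g7 library (right pair), with the alpha subunit gene Suclg1 in grey and the beta subunit genes stacked, Sucla2 in green and Suclg2 in purple. The green parts are of equal height at 19.9 and 19.8 RPKM, while the purple part is 10.1 RPKM in NOD.L7 and 1.96 RPKM in NOD.g7.

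With the pseudocount of 1, Suclg2 had the third highest log2 ratio of the 11141 genes kept. This rank is tied to the pseudocount, as Hdc ranked above Suclg2 with a smaller plain fold, 5.08 against 5.17. The next above it was Hdc, the histidine decarboxylase gene, with a log2 ratio of 2.14, and the next below was Cd14, the lipopolysaccharide co-receptor gene. Of all genes kept, 0.709% (79) passed a size rule set at an absolute log2 ratio of 1, with 0.386% (43) higher in NOD.L7 by that size and 0.323% (36) lower. Among the 2166 genes within 2-fold of the NOD.g7 level of Suclg2, 0.600% (13) were higher by that size. Among the 9 members 1 passed, namely Suclg2, which was chosen for it, so nothing is read from that count. Suclg2 was the lowest member in both libraries. Its level was above 44.3% of the kept genes in NOD.L7 and above 9.90% in NOD.g7.

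**Figure D2:**
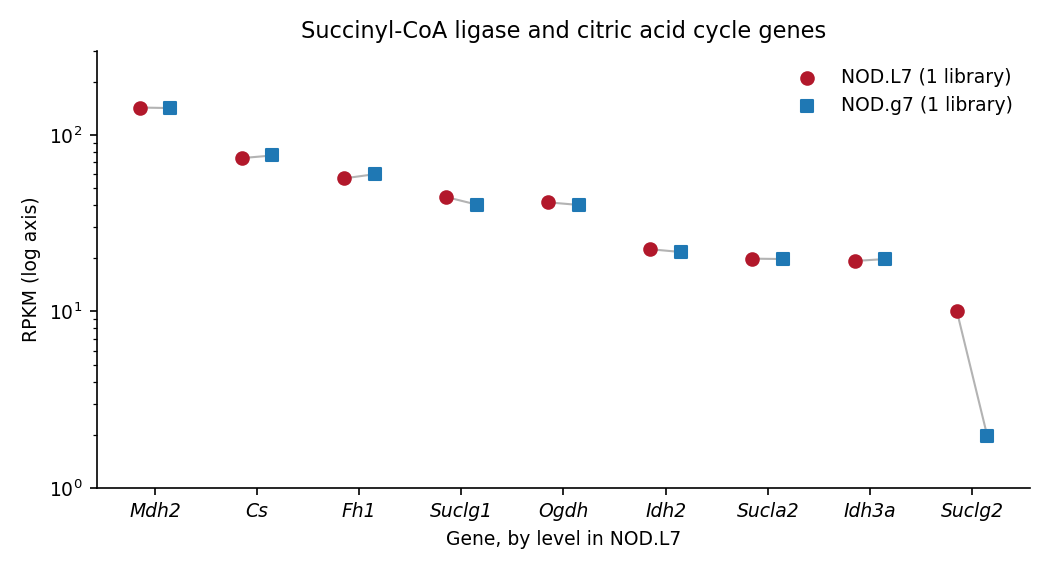
RPKM of the 9 genes on a log axis, ordered by the NOD.L7 level, with the NOD.L7 library as a red circle and the NOD.g7 library as a blue square. The markers lie almost level for 8 genes, and Suclg2 is at 10.1 RPKM in NOD.L7 and 1.96 RPKM in NOD.g7.

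The entry of acetyl-CoA into the cycle was nearly level. Cs, the citrate synthase gene that joins acetyl-CoA to oxaloacetate, was at 73.9 RPKM in NOD.L7 and 76.5 RPKM in NOD.g7, a fold of 0.966 (counting interval 0.942 to 0.991). It was the second highest member in both libraries.

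The isocitrate dehydrogenase genes were also close. Idh3a, the catalytic alpha subunit gene of the NAD-dependent enzyme of the cycle, was at 19.3 RPKM in NOD.L7 and 19.8 RPKM in NOD.g7, a fold of 0.975 (counting interval 0.923 to 1.03). Idh2, which encodes the NADP-dependent mitochondrial enzyme, was at 22.5 RPKM in NOD.L7 and 21.7 RPKM in NOD.g7, a fold of 1.04 (counting interval 0.974 to 1.10). Both counting intervals hold a fold of 1.

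Ogdh encodes the first component of the oxoglutarate dehydrogenase complex, which makes the succinyl-CoA that the ligase uses. Ogdh was at 41.5 RPKM in NOD.L7 and 40.1 RPKM in NOD.g7, a fold of 1.03 (counting interval 1.004 to 1.07). This gene of the complex just before the ligase step thus differed by 3.41% where Suclg2 differed by 417%.

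Past succinate, Fh1, the fumarase gene, was at 56.7 RPKM in NOD.L7 and 59.9 RPKM in NOD.g7, a fold of 0.947 (counting interval 0.918 to 0.977). Mdh2, the mitochondrial malate dehydrogenase gene that closes the cycle, was the highest member, at 143 RPKM in NOD.L7 and 142 RPKM in NOD.g7, a fold of 1.01 (counting interval 0.982 to 1.03). The order of the 9 levels was the same in both libraries, from Mdh2 through Cs, Fh1, Suclg1, Ogdh, Idh2, Sucla2 and Idh3a to Suclg2. Sucla2 and Idh3a were nearly tied in both libraries, and so were Suclg1 and Ogdh in NOD.g7, and without replicates it cannot be said which neighbours in the order differ.

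Of the 8 members other than Suclg2, 5 had a log2 ratio above 0 and 3 below, with a range of -0.08 to 0.14 and a median of 0.01, beside a median of 0.02 over all genes kept. With that median set to 0 the signs of Sucla2 and Mdh2 turned, and 3 were above and 5 below. A log2 ratio of this size or smaller was common, as 70.1% of all kept genes had one, and 81.1% of the 3473 genes with a mean level within the range of these 8. Their summed RPKM was 421 in NOD.L7 and 419.7 in NOD.g7.

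**Figure D3:**
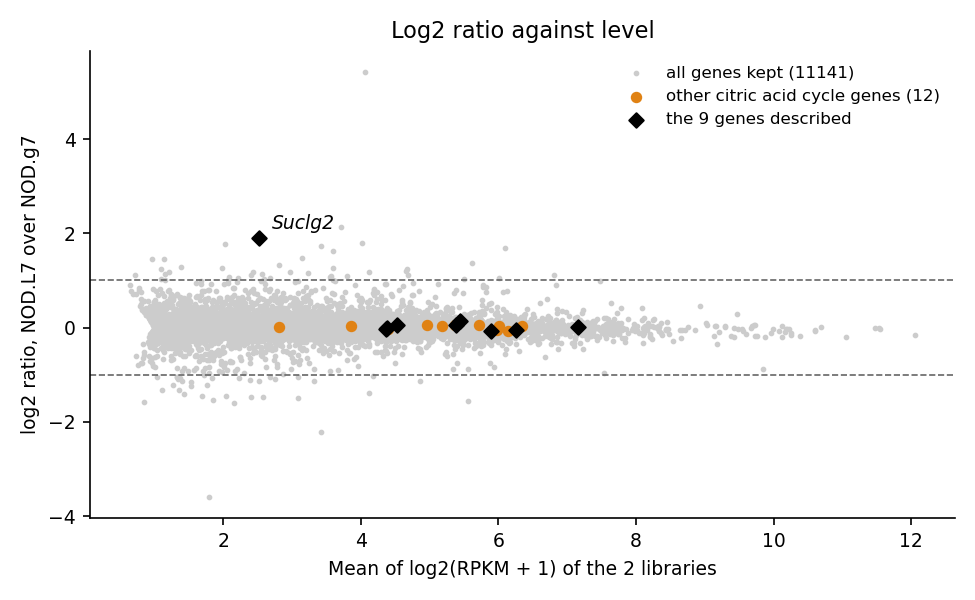
Log2 ratio of NOD.L7 over NOD.g7 (vertical axis) against the mean log2(RPKM + 1) of both libraries (horizontal axis) for the 11141 genes kept in grey, with the 9 genes as black diamonds and 12 further citric acid cycle genes in orange. Suclg2 lies at a log2 ratio of 1.91, above the dashed line at 1, and the other marked genes lie between -0.08 and 0.14.

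The remaining subunits and assembly factors of the cycle's complexes did not pass the size rule in either direction. Of 12 such genes, 8 were above 0 and 4 below, with log2 ratios of -0.08 to 0.06 and a median of 0.03. The largest were Dld, the dihydrolipoamide dehydrogenase that serves several dehydrogenase complexes, at 30.9 RPKM in NOD.L7 and 29.5 RPKM in NOD.g7, and Sdhb, the iron-sulfur subunit of succinate dehydrogenase, at 67.6 RPKM in NOD.L7 and 71.4 RPKM in NOD.g7. Dlst, the second component of the oxoglutarate dehydrogenase complex, was at 52.7 RPKM in NOD.L7 and 50.4 RPKM in NOD.g7. Together with the 9 members this makes 21 cycle genes, of which Suclg2, chosen for its difference, alone reached an absolute log2 ratio of 1. That none of the other 20 did is near the 0.709% of all kept genes that passed.

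Other routes that make or use succinyl-CoA were likewise close. Of 10 kept genes outside the ligase, 7 were above 0 and 3 below, which became 5 and 5 with the median of all genes set to 0, and none passed. Oxct1, the enzyme that passes coenzyme A from succinyl-CoA to ketone bodies, was at 33.9 RPKM in NOD.L7 and 30.8 RPKM in NOD.g7. Mcee, the methylmalonyl-CoA epimerase on the route from propionyl-CoA, was at 7.82 RPKM in NOD.L7 and 8.61 RPKM in NOD.g7. Mut, the mutase at the end of that route, was at 7.89 RPKM in NOD.L7 and 7.56 RPKM in NOD.g7, and Alas1, which condenses succinyl-CoA with glycine at the start of haem synthesis, was at 11.3 RPKM in NOD.L7 and 10.9 RPKM in NOD.g7.

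Loss of succinyl-CoA ligase is known from human disease to go with loss of mitochondrial DNA, so the genes that keep up that DNA and its nucleotides were listed. Of 14 kept genes 6 were above 0 and 8 below, with log2 ratios of -0.13 to 0.15 and a median of -0.01, and none passed. Polg, the mitochondrial DNA polymerase, was at 30.6 RPKM in NOD.L7 and 28.0 RPKM in NOD.g7. Nme4, a nucleoside diphosphate kinase of the mitochondrion, was at 3.90 RPKM in NOD.L7 and 3.82 RPKM in NOD.g7. The members furthest from 0 were Mpv17, an inner membrane protein, at 9.03 RPKM in NOD.L7 and 9.99 RPKM in NOD.g7, and Mgme1, a mitochondrial exonuclease matched through its older symbol 8430406I07Rik, at 3.15 RPKM in NOD.L7 and 2.73 RPKM in NOD.g7.

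The pyruvate dehydrogenase list, with its kinases, phosphatases and the pyruvate carrier, had 12 kept genes, 6 above and 6 below 0, and a median that rounded to 0.00. Pdk2, an inhibitory kinase of the complex, was at 4.49 RPKM in NOD.L7 and 5.27 RPKM in NOD.g7, and the carrier subunit gene Mpc1, matched as Brp44l, was at 1.56 RPKM in NOD.L7 and 1.30 RPKM in NOD.g7. Cytosolic counterparts and genes that refill the cycle had 11 kept genes, 5 above and 6 below 0, with a median of -0.01. Got1, the cytosolic aspartate aminotransferase, was at 20.5 RPKM in NOD.L7 and 18.6 RPKM in NOD.g7, and Pck2, the mitochondrial GTP-using phosphoenolpyruvate carboxykinase, was at 10.1 RPKM in NOD.L7 and 11.7 RPKM in NOD.g7. Of 6 kept carriers of cycle metabolites 1 was above 0 and 5 below, with a median of -0.04. Slc25a11, the oxoglutarate carrier, was at 46.0 RPKM in NOD.L7 and 51.0 RPKM in NOD.g7, and Slc25a1, the citrate carrier, was at 12.5 RPKM in NOD.L7 and 13.3 RPKM in NOD.g7.

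General mitochondrial genes, such as import and outer membrane channel subunits and matrix chaperones, had 20 kept members, 12 above and 8 below 0, with a median of 0.01. With the median of all genes set to 0, 7 were above and 13 below. The members furthest from 0 were Timm23, an inner membrane import channel subunit, at 3.31 RPKM in NOD.L7 and 2.73 RPKM in NOD.g7, and Clpp, a matrix protease, at 16.2 RPKM in NOD.L7 and 17.8 RPKM in NOD.g7. Of 9 kept regulators of mitochondrial gene expression 7 were above 0 and 2 below, with a median of 0.07. With the median of all genes set to 0, 6 were above and 3 below. The 2 regulators furthest from 0 were both below it, unlike most of the list. Gabpb1, a subunit of an ETS-family factor, was at 14.8 RPKM in NOD.L7 and 16.5 RPKM in NOD.g7, and Tfb1m, a methyltransferase of mitochondrial ribosomal RNA, was at 7.77 RPKM in NOD.L7 and 8.63 RPKM in NOD.g7. Over these 8 lists together, 0 of 94 kept genes outside the 9 members reached an absolute log2 ratio of 1, which is near the 0.709% of all kept genes that did, and the range was -0.19 to 0.21.

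Markers of several spleen cell types moved with the library in which Suclg2 was higher, and their part in the result was not tested. All 11 monocyte and macrophage markers were higher in NOD.L7, with a summed level of 1206 RPKM in NOD.L7 and 959.6 RPKM in NOD.g7, and Cd14 was at 29.1 RPKM in NOD.L7 and 7.64 RPKM in NOD.g7. Of 9 neutrophil markers 7 were higher, at a sum of 1110.1 RPKM in NOD.L7 and 849 RPKM in NOD.g7. Of 7 basophil and mast cell markers 6 were higher, at a sum of 39.7 RPKM in NOD.L7 and 15.5 RPKM in NOD.g7, of which Hdc made up 26.4 RPKM in NOD.L7 and 5.20 RPKM in NOD.g7. Members of these lists differed to unequal degrees: the abundant Lyz2, a lysozyme gene of myeloid cells, was at 636 RPKM in NOD.L7 and 618 RPKM in NOD.g7, while Cd14 was 3.82-fold and Hdc 5.08-fold higher. Past the size rule besides Cd14 and Hdc were the haemoglobin scavenger receptor gene Cd163, with a log2 ratio of 1.16, the adhesion molecule gene Vcam1, with 1.05, and the neutrophil genes Cxcr2, with 1.20, and Retnlg, with 1.12. Cma1, a mast cell protease gene, went the other way at -0.92. In the neutrophil list Camp and Ltf were also lower in NOD.L7, with log2 ratios of -0.17 and -0.03, and Ngp was at 0.03. S100a9, at 570.1 RPKM in NOD.L7 and 416 RPKM in NOD.g7, made up much of the neutrophil sum. All 7 germinal centre markers were higher, at a sum of 58.4 RPKM in NOD.L7 and 45.8 RPKM in NOD.g7, with Mef2b at a log2 ratio of 0.98. Bcl6, at 35.6 RPKM in NOD.L7 and 34.7 RPKM in NOD.g7, made up most of this sum and was nearly level, at a log2 ratio of 0.03.

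Other marker lists went the opposite way or were mixed. All 9 erythroid markers were lower in NOD.L7, at a sum of 58.7 RPKM in NOD.L7 and 125 RPKM in NOD.g7. Slc4a1, the red cell anion exchanger, was at 3.97 RPKM in NOD.L7 and 22.1 RPKM in NOD.g7. The blood group gene Rhd had a log2 ratio of -1.59, while Tfrc and Gata1 were closer to level at -0.16 and -0.13. All 7 natural killer (NK) cell markers were lower, at a sum of 132 RPKM in NOD.L7 and 234 RPKM in NOD.g7. The granzyme gene Gzma had a log2 ratio of -1.57 and the receptor gene Ncr1 one of -1.04. Il2rb was closer to level, at 52.6 RPKM in NOD.L7 and 59.1 RPKM in NOD.g7, a log2 ratio of -0.16. Of 7 B cell markers 6 were lower, at a sum of 1980.5 RPKM in NOD.L7 and 2439 RPKM in NOD.g7, with the IgE receptor gene Fcer2a at a log2 ratio of -0.96 and Cd79b at -0.35. T cell markers summed to 692 RPKM in NOD.L7 and 701 RPKM in NOD.g7, and this sum holds opposite differences: the co-receptor genes Cd8a and Cd8b1 had log2 ratios of -0.74 and -0.57, while Cd4 and Trat1 had 0.36 and 0.43. Plasma cell markers to 489 RPKM in NOD.L7 and 408 RPKM in NOD.g7, with 4 of 6 higher and Igj and Sdc1 furthest at 0.52 and -0.21, and proliferation markers to 88.9 RPKM in NOD.L7 and 82.7 RPKM in NOD.g7, with 5 of 8 higher and Mcm2 and Top2a furthest at 0.30 and 0.18. High B and T cell markers in both libraries match the labelled spleen, and no matched marker on the 10 lists was at 0 in both libraries.

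**Figure D4:**
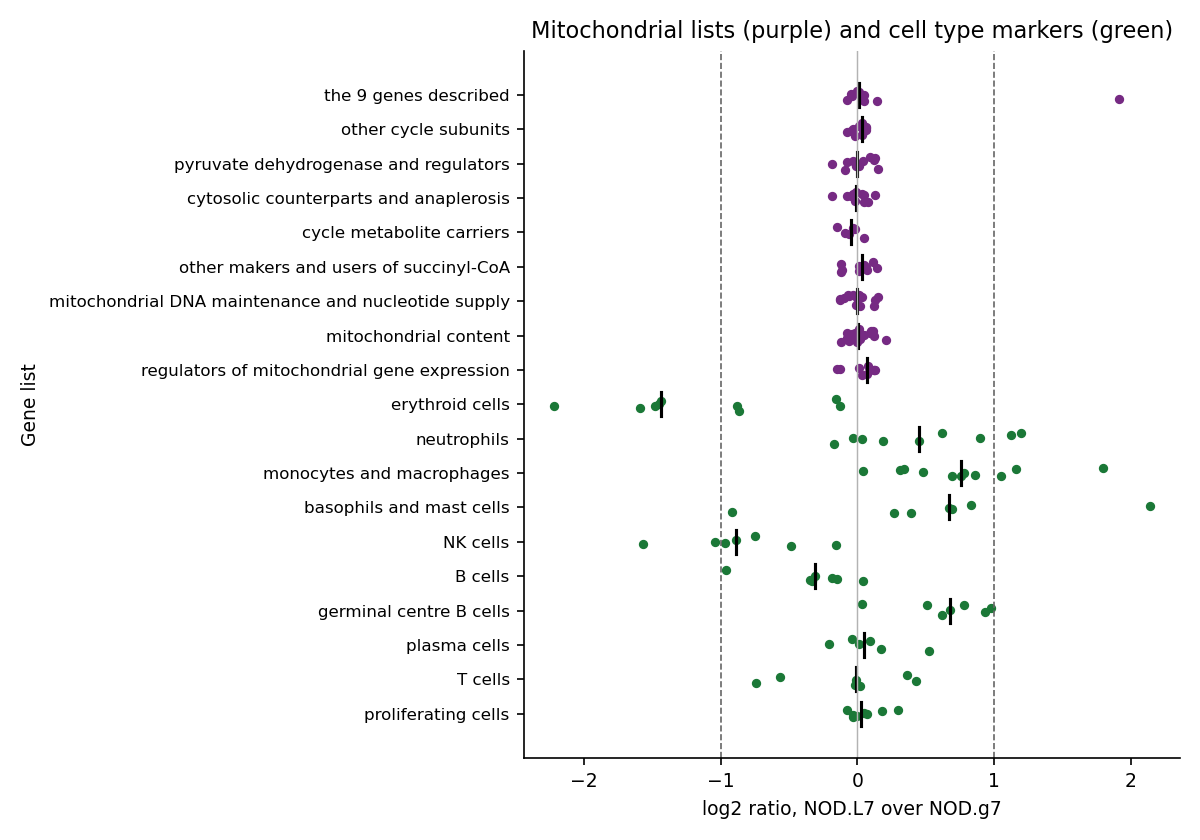
Log2 ratio of NOD.L7 over NOD.g7 for each kept gene of the mitochondrial lists (purple) and the cell type marker lists (green), with a black bar at each list's median and dashed lines at -1 and 1; vertical scatter within a row has no meaning. Purple points outside the 9 genes lie between -0.19 and 0.21, with Suclg2 apart at 1.91, while erythroid and NK cell markers lie below 0 and monocyte and macrophage markers above 0.

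The genes most like Suclg2 were sought by the distance in the plane of log2(RPKM + 1) of the 2 libraries. Kept genes were searched, leaving out Gm-numbered genes, Rik genes and small RNA genes. The nearest 4 were Arg2 (arginase 2) at a distance of 0.54, Cebpd (a transcription factor gene) at 0.55, Gp49a (an immunoglobulin-like receptor gene) at 0.57 and Trem1 (a myeloid cell receptor gene) at 0.59. Arg2 was at 7.05 RPKM in NOD.L7 and 2.57 RPKM in NOD.g7, and Gp49a was at 10.1 RPKM in NOD.L7 and 3.39 RPKM in NOD.g7. Each of the 4 had a smaller fold than Suclg2, from 2.62 for Cebpd to 2.98 for Gp49a. With 2 libraries any gene that was low in one and moderate in the other is near by this measure.

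Suclg2 lies on chromosome 6 at 95424128 to 95668831 in the table's mm9 coordinates, and none of the kept genes beside it differed by as much. Of the 5 kept genes on each side, 7 were above 0 and 3 below, with log2 ratios of -0.08 to 0.50, and none passed. Only 0.709% of all kept genes passed, so none among 10 is near that share. Of all kept genes 6262 were above 0 and 4879 below. Kbtbd8, the nearest on the lower side, was at 3.72 RPKM in NOD.L7 and 3.62 RPKM in NOD.g7. The mitochondrial S-adenosylmethionine carrier gene Slc25a26 was at 2.85 RPKM in NOD.L7 and 3.08 RPKM in NOD.g7. Lrig1, a membrane regulator of growth factor receptors, was the furthest from 0, at 4.59 RPKM in NOD.L7 and 2.96 RPKM in NOD.g7, 1.55-fold higher (counting interval 1.41 to 1.70). Beyond it on that side lay Zfyve20 at 6.85 RPKM in NOD.L7 and 6.98 RPKM in NOD.g7, and Mrps25, a mitochondrial ribosomal protein gene, at 6.58 RPKM in NOD.L7 and 5.92 RPKM in NOD.g7.

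On the other side the nearest kept gene was A130022J15Rik, at 5.56 RPKM in NOD.L7 and 5.21 RPKM in NOD.g7, with its start 1637 kb away. Tmf1 was at 14.5 RPKM in NOD.L7 and 13.7 RPKM in NOD.g7, and Uba3, a subunit of the NEDD8-activating enzyme, was at 18.5 RPKM in NOD.L7 and 16.5 RPKM in NOD.g7. Arl6ip5 was at 108 RPKM in NOD.L7 and 112 RPKM in NOD.g7, and Frmd4b at 4.32 RPKM in NOD.L7 and 3.42 RPKM in NOD.g7, 1.26-fold higher (counting interval 1.15 to 1.38). The nearest genes past the size rule on this chromosome were Capg, an actin-capping protein gene, 22.9 Mb below Suclg2, and Clec4d, a C-type lectin receptor gene, 27.8 Mb above. Of all 555 kept genes of chromosome 6, 14 (2.52%) passed, Suclg2 among them, against 0.709% over all chromosomes. Capg and Clec4d bound the stretch as the nearest genes that passed. That none of the 205 other kept genes between them passed follows from this choice, and nothing is read from it. Suclg1 lies on the same chromosome at 73198499 to 73226901, close to Capg, with a log2 ratio of 0.14.

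**Figure D5:**
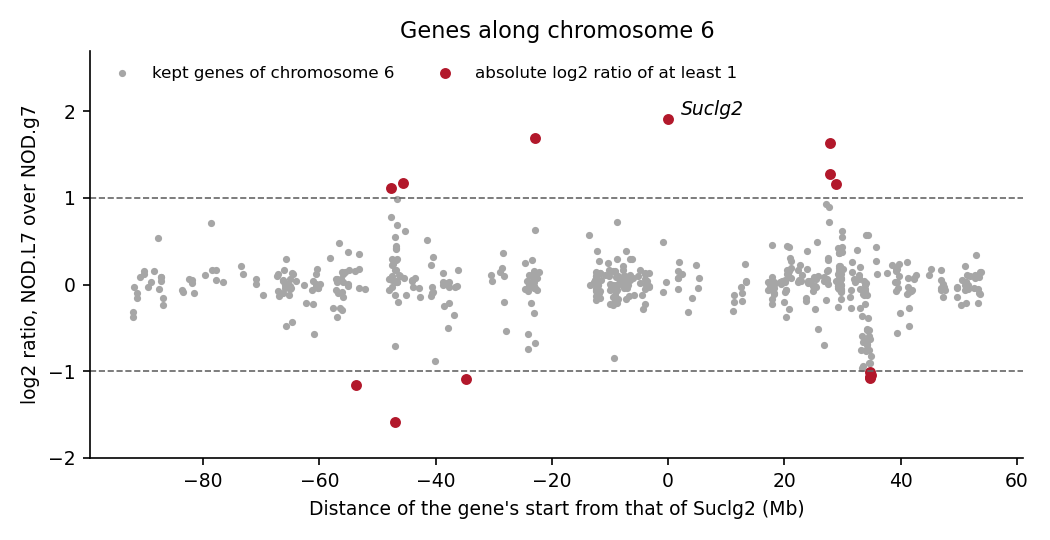
Log2 ratio of NOD.L7 over NOD.g7 for the 555 kept genes of chromosome 6 against the distance of each gene's start from that of Suclg2 in Mb, with the 14 genes (2.52%, against 0.709% of all kept genes) past the size rule in red. Suclg2, at 1.91, has no other red point within 22.9 Mb.

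Idh2 is the member on chromosome 7, at 87239734 to 87260236. Of the 5 kept genes on each side 6 were above 0 and 4 below, with log2 ratios of -0.15 to 0.41. None passed, which is near the 0.709% of all kept genes that did. Anpep, the aminopeptidase gene, was at 8.42 RPKM in NOD.L7 and 6.09 RPKM in NOD.g7, and Vps33b, a vesicle trafficking gene, was at 12.5 RPKM in NOD.L7 and 14.0 RPKM in NOD.g7. The direct neighbours Zfp710, at 16.8 RPKM in NOD.L7 and 16.3 RPKM in NOD.g7, and Sema4b, at 35.6 RPKM in NOD.L7 and 35.5 RPKM in NOD.g7, were as close as Idh2 itself. The others were Polg, given above, 5730590G19Rik, Ap3s2, Cib1, D330012F22Rik and Ngrn, with log2 ratios between -0.14 and 0.14.

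How much of each transcript is shared with another gene bears on the levels, because the treatment of reads with several matches is not given in the sources used here. Of the 3268 windows of 100 bases in the longest Suclg2 transcript of GENCODE M21, 389 (11.9%) also occurred in Gm15163, a processed pseudogene. Of the 3318 windows of 50 bases, 724 (21.8%) did, all between bases 116 and 1327 of the transcript. Gm15163 itself was not analysed here. Suclg1 shared 12 of 2718 windows of 50 bases with other genes and 0 of 100 bases, and the other 7 members shared 0 of either length. Part of the Suclg2 reads may therefore be assigned with less certainty than those of the other members, and the part of this in the difference was not tested.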

How the data were processed

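Per the file name and headers, the authors deposited 1 RPKM value per gene and library. Per the submitters' processing notes, CASAVA 1.8.2 and SAMtools 0.1.18 were used with mm9; the sources used here do not give the gene models, strandedness or handling of multiply matching reads. The mapped bases behind each library were worked out from the steps of low RPKM values in single-exon genes shorter than 2500 bases (whole to within 0.15 for 113 of 113 values in NOD.L7 and 109 of 109 in NOD.g7). Fragments were approximated from the RPKM, the longest GENCODE M21 transcript and 200 bases per fragment, and the 95% interval of a fold from the exact Clopper-Pearson interval of the fragments; intervals cover counting error only, and reads carried no molecular identifiers.

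Log2 ratios of NOD.L7 over NOD.g7 had 1 added to each RPKM, so changes of low genes come out smaller; genes reaching an RPKM of 1 in 1 library or both were kept, and the size rule was an absolute log2 ratio of at least 1. No test was made, since each genotype has 1 library. Members, lists and rules were chosen with earlier results of these data known. Named genes were the members, the 2 furthest from 0 in each pathway list and up to 2 in each marker list. They were also the 5 kept neighbours on each side of Suclg2 and Idh2, and the 4 nearest patterns. Dlst, Mut, Alas1, Polg, Nme4, Lyz2, Vcam1, S100a9, Ngp, Camp, Ltf, Cd4, Trat1, Bcl6, Tfrc, Gata1 and Il2rb were added after their values were seen. So were Capg and Clec4d, the nearest genes past the size rule beside Suclg2. Some genes of the lists are not reported here by name. Of the erythroid list 9 of 10 symbols were matched; the macrophage list (12 symbols, 11 genes) and the germinal centre list (8 symbols, 7 genes) each held 2 names of 1 gene. RefSeq promoter windows matched 8 of 9 members, all but Idh3a; Ogdh had 6 windows. Python 3.11.15 with pandas 2.3.3, SciPy 1.17.1 and Matplotlib 3.10.9 was used.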

Additional observations from a re-analysis of the deposited data

How the results depend on the processing

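No paired analysis was possible because there was 1 library of each genotype, and no replicate could be left out. Suclg2 passed the size rule, and the other 8 members did not, at pseudocounts of 0.1 and 0.5, with no filter, with a filter at an RPKM of 5, after median centring and with TMM scaling of the RPKM values (trimming 30% of the ratios and 5% of the levels). The Suclg2 log2 ratio was 2.31 at a pseudocount of 0.1 and 2.11 at 0.5, against 1.91, and 1.90 and 1.89 after median centring and the TMM factor. The number of all genes past the rule was 166 at a pseudocount of 0.1, 124 at 0.5 and 52 at a filter of RPKM 5, against 79; the first pair admits lower genes by construction and the filter tests fewer. The median of the other 8 members was -0.01 after centring or the TMM factor, against 0.01. With 1 added to each RPKM, the Suclg2 share of the beta subunit level was 34.8% in NOD.L7 and 12.4% in NOD.g7, against 33.8% in NOD.L7 and 8.99% in NOD.g7 as reported. Gene length and the handling of shared reads were not varied for this share. The counting interval of the Suclg2 fold was 4.75 to 5.64 at 100 bases per fragment and, chosen after seeing the data, 4.50 to 5.98 with the second longest coding transcript. Depth limits Suclg2 in NOD.g7, at about 301 fragments, more than any other member.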
